A study of Homo sapiens with 2 samples.

Results

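The SP and KLF zinc-finger transcription factors were followed on the arrays through 10 genes: SP1, SP2, SP3, SP4, KLF4, KLF5, KLF6, KLF9, KLF10 and KLF11. Their probes were found by gene name in the scanner files, under the current or a former symbol, and probes that the scanner marked as poor were left out. This gave 12 probes of 24456 gene probes in use, 1 for each gene except SP2 and KLF10, which had 2 each. The KLF6 probe stands in the scanner file under the former symbol COPEB.

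MDA-MB-231, a human breast cancer cell line that lacks hormone receptors and HER2 amplification (triple-negative), was grown in 3D on Matrigel, a laminin-rich extracellular matrix, in both conditions. One culture received X-rays at 2 Gy on each of 4 days (2 Gy x 4) and the other received none (0 Gy), and neither carried any other treatment that the labels give. No source used here states the time from the last fraction to RNA isolation. Amplified, Cy5-labelled RNA of each culture was hybridised to 1 Toray 3D-Gene chip, a 1-colour oligonucleotide array, so every value below compares 1 array with 1 array, without a replicate check and without a p-value.

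SP and KLF proteins share a C-terminal DNA-binding domain of C2H2 zinc fingers. Through it they bind GC boxes and the related GT or CACCC boxes, which lie in the promoters of many housekeeping and growth-regulated genes. Sp1 and Sp3 are present in most cell types and act largely through their modification and partners, while many KLF genes are themselves switched on or off by growth factors, hormones and stress. The kinase ATM, which senses DNA double-strand breaks, phosphorylates Sp1 after irradiation, and the study examined Sp1 at the BLOC1S2 and BORCS5 promoters. Both genes encode subunits of BORC, the complex that recruits Arl8b to lysosomes.

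The GC box searched for here was GGGCGG on either strand, so that CCGCCC counts as well, and overlapping matches were counted separately. In RefSeq promoters of GRCh38.p14, running from 250 bases before to 50 bases after a gene's start, 45.0% of 35116 promoters held at least 1. Promoters of 9 of the 10 genes were read, with 14 start sites, of which 12 held a GC box. The sequences shown are those of SP1 (most GC boxes), KLF5 and KLF9 (the highest and the lowest ratio among the 12 probes), and BLOC1S2 and BORCS5 (the genes followed as Sp1 targets). Each is given 5′ to 3′ on the gene's strand with GC boxes in capitals, and for a gene with several start sites the one with the most GC boxes is printed. The SP1 promoter lies at chr12:53380394-53380693 (plus strand) and held 10 matches. The KLF5 promoter at chr13:73058755-73059054 (plus strand) held 2, and the KLF9 promoter at chr9:70414608-70414907 (minus strand) held 0. The BLOC1S2 promoter at chr10:100286315-100286614 (minus strand) held 2, and the BORCS5 promoter at chr12:12356828-12357127 (plus strand) held 3.
SP1: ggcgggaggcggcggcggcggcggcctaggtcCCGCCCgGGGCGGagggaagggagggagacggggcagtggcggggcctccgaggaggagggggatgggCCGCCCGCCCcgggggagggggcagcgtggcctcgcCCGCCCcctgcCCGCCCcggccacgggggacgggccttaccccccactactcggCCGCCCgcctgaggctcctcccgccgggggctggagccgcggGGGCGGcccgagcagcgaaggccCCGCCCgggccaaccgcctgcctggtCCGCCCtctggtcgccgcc
KLF5: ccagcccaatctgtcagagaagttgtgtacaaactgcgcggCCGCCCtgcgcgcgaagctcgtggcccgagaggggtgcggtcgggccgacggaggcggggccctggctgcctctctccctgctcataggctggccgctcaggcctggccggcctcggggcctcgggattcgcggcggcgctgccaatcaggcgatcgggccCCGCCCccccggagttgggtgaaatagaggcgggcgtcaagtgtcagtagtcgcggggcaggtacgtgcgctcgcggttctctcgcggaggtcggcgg
KLF9: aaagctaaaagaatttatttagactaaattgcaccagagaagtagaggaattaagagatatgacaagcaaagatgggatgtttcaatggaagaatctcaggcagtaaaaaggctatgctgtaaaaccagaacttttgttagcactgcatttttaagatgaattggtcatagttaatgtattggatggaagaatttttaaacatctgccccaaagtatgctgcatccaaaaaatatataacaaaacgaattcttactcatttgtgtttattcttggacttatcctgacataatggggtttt
BLOC1S2: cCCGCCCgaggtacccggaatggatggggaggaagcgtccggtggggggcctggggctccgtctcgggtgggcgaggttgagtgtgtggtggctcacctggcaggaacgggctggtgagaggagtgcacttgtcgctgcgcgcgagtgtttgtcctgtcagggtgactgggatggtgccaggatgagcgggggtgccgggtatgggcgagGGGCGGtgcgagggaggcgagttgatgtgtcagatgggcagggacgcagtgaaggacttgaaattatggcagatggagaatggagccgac
BORCS5: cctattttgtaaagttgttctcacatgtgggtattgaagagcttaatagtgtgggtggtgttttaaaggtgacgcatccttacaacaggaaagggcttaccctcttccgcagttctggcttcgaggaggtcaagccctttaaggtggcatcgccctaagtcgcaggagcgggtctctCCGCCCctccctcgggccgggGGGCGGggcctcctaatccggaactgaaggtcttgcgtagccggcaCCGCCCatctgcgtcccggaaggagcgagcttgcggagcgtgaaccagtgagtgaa

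A match describes the letters of these windows and says nothing about occupancy. The other members with a promoter were SP4 and KLF4 with 4 matches each, SP2, SP3 and KLF6 with 2 each, and KLF11 with 7. The share of G and C was 83.3% in the SP1 promoter and 32.7% in the KLF9 promoter, against a median of 58.7% over all promoters. A second motif, GGGTG on either strand, which is the core of a CACCC box, occurred in 59.9% of all promoters. It was matched 2 times in the KLF5, 3 times in the BLOC1S2 and 1 time in the BORCS5 promoter, and 0 times in the SP1 and KLF9 promoters shown.

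All 12 member probes were brighter than the 95th percentile of the blank spots on both arrays, which was 16.0 scanner units on the 2 Gy x 4 array and 14.2 on the 0 Gy array. This was the rule for a detected probe, and 22069 gene probes met it on both arrays. The member spots ran between 26.6 and 1883 units on the 2 Gy x 4 array and between 27.2 and 2350 on the 0 Gy array. Because brightness also depends on a probe's own sequence, the spots of different genes cannot be ranked as mRNA levels. Spot intensities were background-corrected and quantile-normalised, and the ratio of these normalised values is called the normalised ratio. Its correction adds 50 units to every probe, which pulls the ratios of dim probes towards 1, so the ratio of the deposited value table, which has no such constant, is given beside it.

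**Figure D1:**
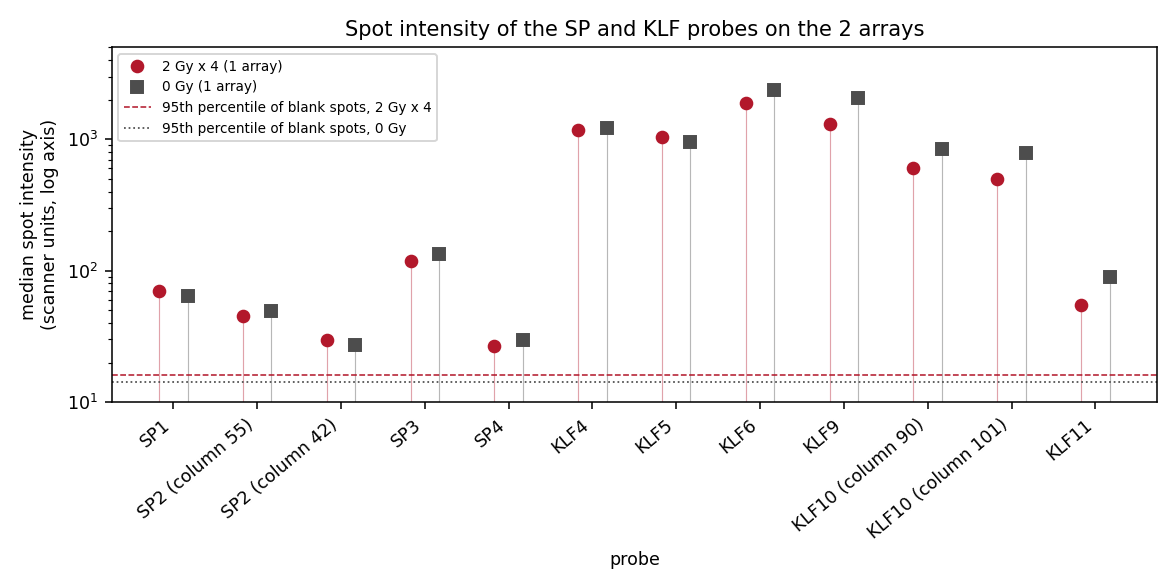
Median spot intensity in scanner units (log axis) of the 12 SP and KLF probes, with the 2 Gy x 4 array as red circles left of the 0 Gy array as grey squares, and the 95th percentile of blank spots of each array as a line. The KLF4, KLF5, KLF6, KLF9 and KLF10 spots lay far above the blank spots, while the SP and KLF11 spots stayed below 133 units.

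At 1.5-fold, the size rule for a call, 0 of the 12 member probes was called. In a simulated pair of arrays this rule called 20% of true 1.5-fold rises and 8% of true falls of that size. The changed probes of that pair were drawn from detected probes of every brightness, and no trend across the chip was simulated. These shares thus do not describe the brighter KLF probes, whose ratios the added constant alters less. A probe that was not called may still have changed. Over all detected probes 0.322% were called higher and 1.16% lower in the 2 Gy x 4 culture. Of the members 5 probes were higher and 7 lower, with a median log2 difference of -0.02, while that of all detected probes was 0.01. The lowest normalised ratio was 0.698 for KLF9 and the highest 1.18 for KLF5. By the value table, only KLF11 among the members was called, and it was lower, beside 7.26% of all detected probes called lower and 4.40% called higher.

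Position on the chip moved with the ratios. Probes in the last 26 of 104 columns had a median normalised log2 difference of -0.10, against 0.03 in the other columns, and 4.09% of them were called lower. In the value table the medians were -0.25 and 0.11, and 23.0% of the probes in those columns were called lower. The SP4, KLF4 and KLF11 probes and both KLF10 probes lay in the last 26 columns. Each member was therefore also read after subtraction of the local trend, namely the median over detected neighbours up to 11 rows and 8 columns away. Less that trend, 0 of the 12 probes was called by either set of values, beside 0.507% of all detected probes called lower from the normalised values and 4.27% from the value table.

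Sp1 itself, the founding activator of the family, had 69.8 units on the 2 Gy x 4 array and 64.2 on the 0 Gy array, in chip column 22. Its normalised values were 113 and 100.2, a ratio of 1.13, and its value table entries were 31.2 and 24.9, a ratio of 1.25. The irradiated array was higher in each of these scales, by an amount that its neighbours on the chip shared. The surrounding detected probes had a median log2 difference of 0.14 in normalised values and 0.32 in the value table, while SP1 stood at 0.17 and 0.32. With the local trend taken off, the SP1 log2 difference was 0.03 from the normalised values and 0.00 from the value table. Phosphorylation of Sp1 and its binding to DNA are not read by these arrays.

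SP2, which binds fewer GC boxes than Sp1 and has been tied to CCAAT-containing promoters, had 2 probes. The probe in column 55 read 44.9 units at 2 Gy x 4 and 49.2 at 0 Gy, with a normalised ratio of 1.01 and a value table ratio of 0.980. The probe in column 42 read 30.0 units at 2 Gy x 4 and 27.2 at 0 Gy, with ratios of 1.07 and 1.27. The probes lay on different sides of 1 in the value table. Between these probes the normalised log2 differences were 0.08 apart, and 0.37 apart in the value table. Over the 2359 genes with exactly 2 detected probes, the median gap was 0.13 in normalised values and 0.30 in the value table.

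SP3, which competes with Sp1 for the same boxes and can activate or repress, had 119 units at 2 Gy x 4 and 133 at 0 Gy. Its normalised values of 165 and 166 gave a ratio of 0.994, and the value table gave 58.8 and 57.9. No member stood closer to 1 than SP3 in normalised values. SP4, best known from neurons, had 26.6 units at 2 Gy x 4 and 29.6 at 0 Gy, the dimmest member probe on the irradiated array. Its log2 difference was -0.03 in normalised values and -0.21 in the value table, and 0.01 and -0.12 once the local trend was taken off. Over the 5 SP probes, the median normalised log2 difference was 0.01 and the ratios ran between 0.978 and 1.13. For comparison, the central 80% of the 15171 detected probes with a mean normalised signal between 50 and 200, the range of the SP and KLF11 probes, had ratios between 0.895 and 1.11. SP1 lay above this range and KLF11, at 0.788, below it. In the value table the same probes had a range of 0.680 to 1.37, with SP1 at 1.25 inside it and KLF11 at 0.626 below it. These ranges pool all chip columns. Among its own neighbours SP1 was not above the 90th percentile, a normalised log2 difference of 0.38.

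Among the KLF activators, KLF5, which promotes proliferation of epithelial and basal-like breast cancer cells, was the highest member in normalised values. It had 1037 units at 2 Gy x 4 and 961 at 0 Gy, in column 72. The normalised values were 1132 and 957 and the value table entries 569 and 456, with ratios of 1.18 and 1.25. Its log2 difference of 0.24 was above the 90th percentile of the surrounding probes, 0.13, but in the value table it was 0.32, below their 90th percentile of 0.36. Less the local trend the ratios were 1.18 and 1.23. KLF5 was higher in the 2 Gy x 4 culture by under 1.5-fold in each of these readings.

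KLF4, which drives differentiation and cell cycle arrest in epithelia and is induced by p53 after DNA damage, had 1175 units at 2 Gy x 4 and 1218 at 0 Gy. Once normalised, its values were 1279 and 1195, a ratio of 1.07, and its value table entries were 645.8 and 579, a ratio of 1.12. The raw spot was thus dimmer in the irradiated culture and the scaled values were higher. It lay in column 94, where the surrounding probes had a median log2 difference of -0.06 in normalised values and -0.17 in the value table. Less these, its ratio was 1.12 and 1.25, and the value table figure was the highest of the 12 probes under that reading.

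KLF6, an early-response gene of injury whose splice forms differ in their effect on growth, had 1883 units at 2 Gy x 4 and 2350 at 0 Gy. Its normalised values of 2015 and 2282 gave a ratio of 0.883, and its value table entries of 1040 and 1123 gave 0.926. After subtraction of the trend these were 0.899 and 0.984. The local background recorded around this spot was 1657 units at 2 Gy x 4 and 2455 at 0 Gy, so on the 0 Gy array it exceeded the spot itself. With that background subtracted the log2 difference became 2.11, the only KLF6 value past 1.5-fold.

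The 4 probes of KLF9, KLF10 and KLF11 were all lower in the 2 Gy x 4 culture in normalised values and in the value table. Both KLF10 probes and the KLF11 probe lay in the last 26 columns. KLF9, which is induced by glucocorticoids and thyroid hormone and restrains proliferation, had 1299 units at 2 Gy x 4 and 2062 at 0 Gy. Its normalised values were 1398 and 2004, a log2 difference of -0.52, and its value table entries were 715 and 985, a difference of -0.46. It lay in column 72, outside the edge columns, where the median of the surrounding probes was -0.02 and their 10th percentile -0.26. With the trend subtracted, its ratio was 0.706 in normalised values and 0.748 in the value table. In the value table its surroundings were wider, with a 10th percentile of -0.47, and KLF9 lay just inside it. KLF9 was the lowest member in normalised values both before and after subtraction of the trend, and it did not reach 1.5-fold in either. With the local background subtracted its log2 difference was -0.24.

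KLF10, a TGF-beta-inducible early gene also known as TIEG1, had 2 probes. In column 101 it read 498 units at 2 Gy x 4 and 792 at 0 Gy, with a log2 difference of -0.49 in normalised values and -0.48 in the value table. In column 90 it read 608 at 2 Gy x 4 and 836 at 0 Gy, with differences of -0.30 and -0.26. Both probes gave the lower value in the irradiated culture, 0.19 apart on the log2 scale. Around them, the median difference of the detected probes was -0.29 and -0.18 in normalised values and -0.73 and -0.42 in the value table. Less the local trend, the normalised ratios were 0.875 for the probe in column 101 and 0.918 for that in column 90. The value table ratios less the trend were 1.20 and 1.11, above 1, so the direction of KLF10 differed between the readings.

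KLF11, the related TIEG2, had 55.0 units at 2 Gy x 4 and 88.8 at 0 Gy in column 95. Its normalised values of 97.4 and 124 gave a ratio of 0.788, and its value table entries of 23.0 and 36.8 gave 0.626, the only member value past 1.5-fold there. With no added constant in the correction the ratio was 0.644. The surrounding probes had a median log2 difference of -0.16 in normalised values and -0.41 in the value table, and KLF11, at -0.34 and -0.68, lay above their 10th percentiles of -0.51 and -1.06. Subtraction of the local trend gave 0.880 and 0.830.

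Taking the 7 KLF probes as a group, the median log2 difference was -0.30 in normalised values, and 2 were higher and 5 lower. After subtraction of the trend the median was -0.15 in normalised values and 0.16 in the value table, where 4 were higher and 3 lower. The 5 member probes in the last 26 columns had a median of -0.30 and the other 7 a median of 0.01, in normalised values. The central 80% of the 2555 detected probes with a mean normalised signal between 500 and 2500 had ratios between 0.795 and 1.24. Of the 6 KLF probes in that range, KLF9 and the KLF10 probe in column 101 lay below it. This range pools all chip columns and, like that of the dimmer probes, was computed after the values were seen. Among its own neighbours this KLF10 probe, at -0.49, lay above the 10th percentile of -0.71 in normalised log2 differences.

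**Figure D2:**
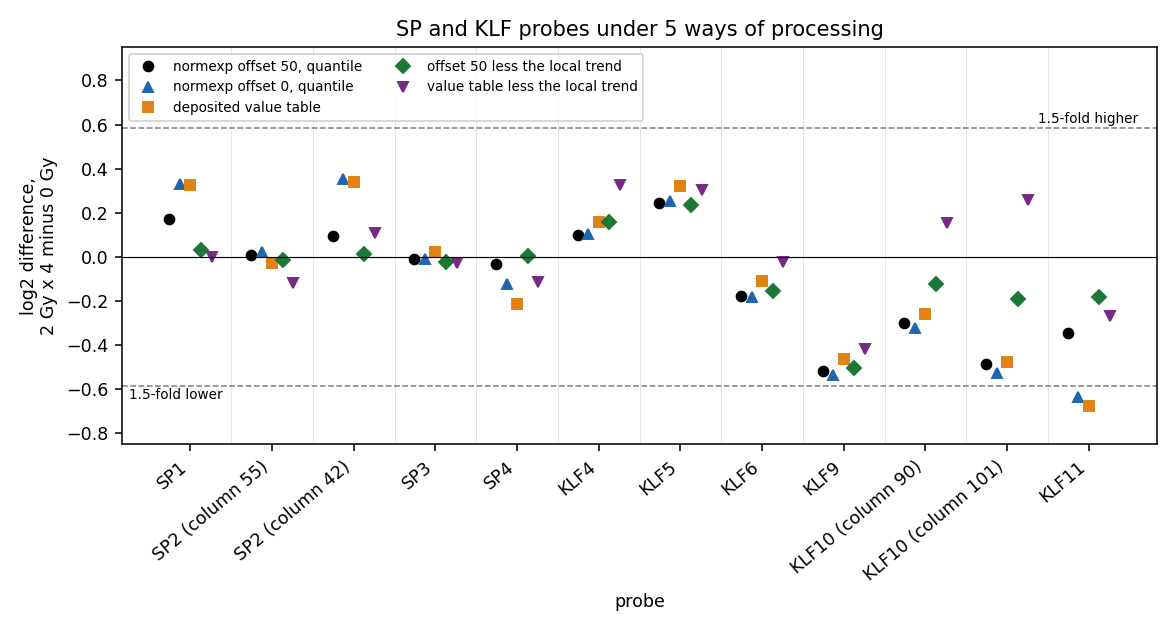
Log2 difference, 2 Gy x 4 minus 0 Gy, of each SP and KLF probe under 5 ways of processing, with dashed lines at 1.5-fold. Under these 5 KLF9 lay between -0.54 and -0.42, whereas both KLF10 probes passed from below 0 to above 0 in the value table less the local trend.

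**Figure D3:**
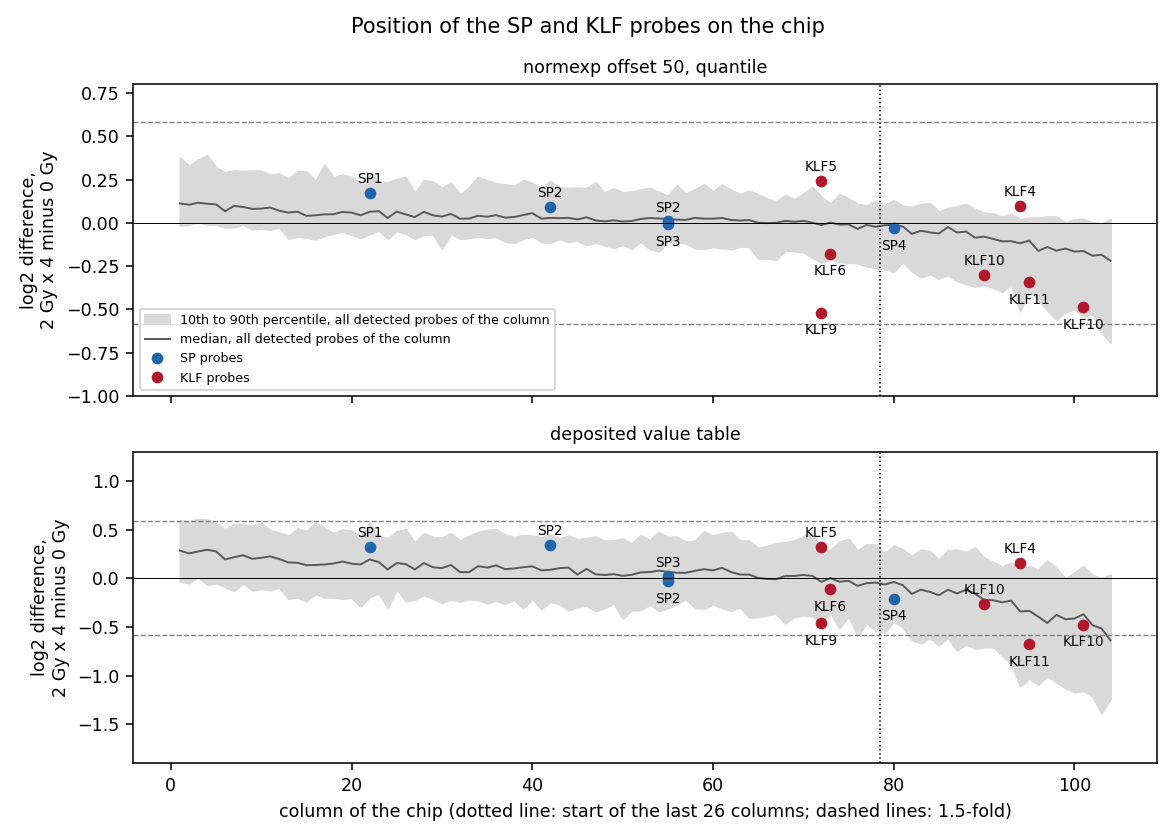
Log2 difference, 2 Gy x 4 minus 0 Gy, against chip column for the normalised values (top) and the value table (bottom), with SP probes in blue, KLF probes in red and the median and central 80% of all detected probes of each column in grey. In the top panel KLF9 in column 72 lay below the grey band, and KLF5 in column 72 and KLF4 in column 94 lay above it. Both KLF10 probes and KLF11 lay within the falling band of the last 26 columns.

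The remaining 17 SP and KLF genes had 1 probe each, all detected, and 0 of them was called in normalised values. Their ratios ran between 0.860 for SP5 and 1.10 for KLF2, the endothelial and T cell quiescence factor, with a median log2 difference of -0.0044. KLF18 stood at 1.08 and KLF7 at 0.959. KLF8, named here after its value was seen, was the only one of the 17 called in the value table, lower at 0.662. There 7.26% of all detected probes were called lower and 4.40% higher. The KLF8 spot was 17.4 units at 2 Gy x 4 and 18.9 at 0 Gy, 1.09 times the blank percentile of the 2 Gy x 4 array. Over the whole family of 27 genes and 29 probes, no probe was called in normalised values. The shares over all detected probes were 0.322% called higher and 1.16% lower, so a count of 0 is near them.

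Co-regulators and enzymes that act on these factors had 24 detected probes for 18 genes, with a median log2 difference of 0.05. Of these probes 0 was called in normalised values, beside 0.322% of all detected probes called higher and 1.16% lower. BAP1, a deubiquitinase that stabilises KLF5, had 319.5 units at 2 Gy x 4 and 251 at 0 Gy, a log2 difference of 0.42. WWP1, a ubiquitin ligase that marks KLF5 for degradation, had 118 units at 2 Gy x 4 and 191 at 0 Gy, a log2 difference of -0.44 in column 93 and -0.30 less the local trend. HDAC1, a deacetylase recruited with the Sin3A co-repressor, had 2 probes with differences of 0.34 and 0.20. The acetyltransferase gene CREBBP had 2 probes on different sides of 0, at 0.36 and -0.17. ATM also had 2 probes that ran apart, with 28.2 units at 2 Gy x 4 and 23.0 at 0 Gy in column 53, and 43.8 at 2 Gy x 4 and 67.1 at 0 Gy in column 38. Their log2 differences were 0.14 and -0.27, and their value table ratios 1.58 and 0.635, so the arrays gave ATM no single direction.

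Sp1 target genes, a list of 13 textbook genes with BLOC1S2 and BORCS5 added, had 19 of 20 probes detected. In normalised values 1 was called, lower, beside 1.16% of all detected probes, with a median log2 difference of 0.10. In the value table there were 3 called higher and 1 lower, beside 4.40% and 7.26% of all detected probes. Less the local trend 4 were called higher and 0 lower there, beside 3.25% of all detected probes called higher. The study chose BLOC1S2 and BORCS5 from patient survival data together with these same arrays. In separate experiments it reports lower mRNA of both after Sp1 knockdown, and more Sp1 at their promoters after irradiation. Because these arrays served in choosing them, their values here are not independent evidence for the list. Without them, 15 probes had a median of 0.06, with 0 called higher and 1 lower in normalised values, and 1 higher and 1 lower in the value table. In the value table less the local trend, 2 of these 15 probes were called higher and 0 lower. BLOC1S2 had 775 units at 2 Gy x 4 and 579 at 0 Gy in column 59, a log2 difference of 0.53 and a value table ratio of 1.56, past 1.5-fold. Its second probe, in column 83, read 21.6 units at 2 Gy x 4 and 21.9 at 0 Gy, 1.35 times the blank percentile of the 2 Gy x 4 array, with a difference of 0.01. BORCS5 had detected probes in columns 8 and 48, with differences of 0.18 and 0.17 and value table ratios of 1.25 and 1.72, the second past 1.5-fold from spots of 29.0 units at 2 Gy x 4 and 22.5 at 0 Gy. It also had a probe in column 103 that was not above the blank percentile on the 2 Gy x 4 array. BIRC5, the survivin gene, had a log2 difference of 0.53 and a value table ratio of 1.77, and CCND1, the cyclin D1 gene, 0.47 and 1.42. TGFBR2, which encodes the type II TGF-beta receptor, was called lower at 0.663 in column 98 and was not called less the local trend, at 0.689. The list thus held probes well above and well below 1.

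Genes that share an inducer with members of the family were read beside them. Of the 9 detected probes of glucocorticoid-induced genes, the class to which KLF9 belongs, 2 were called lower and 0 higher. Over all detected probes these shares were 1.16% and 0.322%. The list had a median log2 difference of -0.10. It was chosen with earlier results of these data known, and a shared cause was not tested. TSC22D3, which encodes GILZ, had 4497 units at 2 Gy x 4 and 8769 at 0 Gy, a normalised ratio of 0.596. ZBTB16, the PLZF zinc-finger gene, had 194 units at 2 Gy x 4 and 353 at 0 Gy, a ratio of 0.644. Both lay outside the last 26 columns, in columns 39 and 73, and kept ratios of 0.599 and 0.657 less the local trend. ERRFI1 stood at 0.735, and the 2 probes of the clock gene PER1 at 0.777 and 0.935. In normalised values the list did not move as 1 block, since its other 4 genes had ratios between 1.02 and 1.13. Under median scaling the lowest of these ratios was 0.942.

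The 13 detected probes of TGF-beta early-response genes, the class of KLF10 and KLF11, had a median of -0.08. Beside 1.16% of all detected probes, 1 probe of this list was called lower. This was CCN2, with 528 units at 2 Gy x 4 and 1076 at 0 Gy in column 98, a ratio of 0.561. Less the local trend it was 0.678 in normalised values and 0.852 in the value table, so that 0 probes of the list were then called. Its second probe, in column 45, had 33.6 units at 2 Gy x 4 and 32.7 at 0 Gy. JUNB stood at 0.838 and CCN1 at 0.888. The EGR and WT1 genes, whose zinc fingers also read GC-rich sites, had 5 detected probes and 0 calls in normalised values. Their normalised log2 differences were -0.26 for EGR1, -0.24 for EGR2, 0.08 for EGR4 and 0.12 for WT1. In the value table the ratio of EGR2 was 0.481 and that of EGR4 1.57, from spots of at most 39.1 units.

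**Figure D4:**
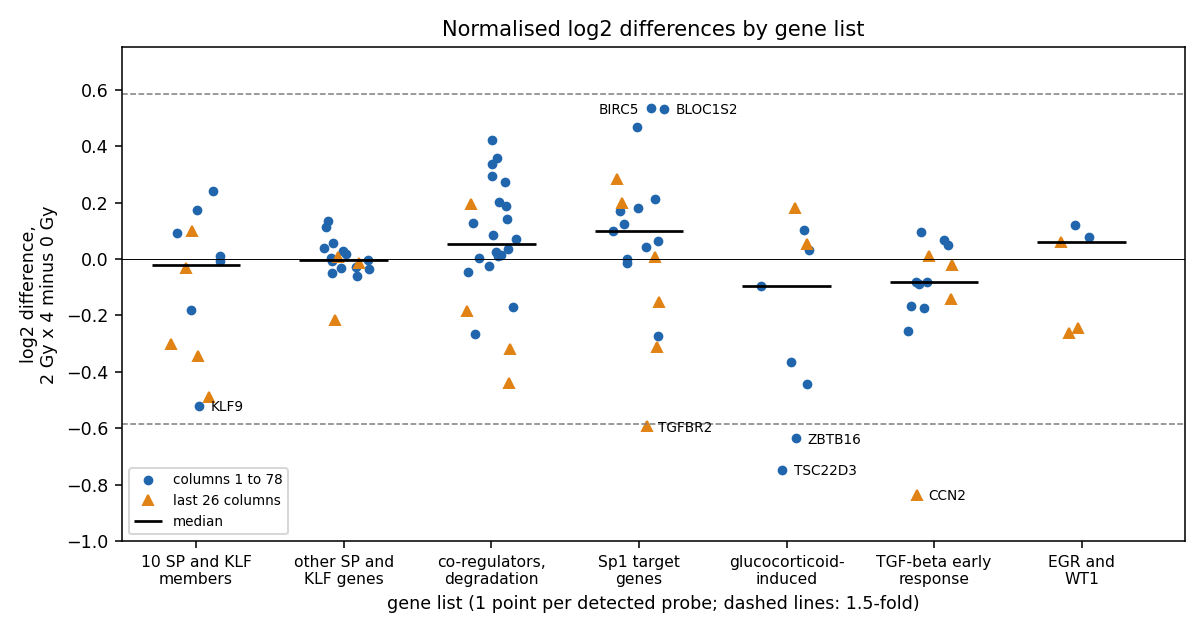
Normalised log2 differences, 2 Gy x 4 minus 0 Gy, of every detected probe in 7 gene lists, with probes of the last 26 columns as orange triangles, medians as black bars and dashed lines at 1.5-fold. The 12 member probes lay inside the dashed lines, and the called probes were TGFBR2, ZBTB16, TSC22D3 and CCN2, all lower.

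Markers of the labelled line were read on both arrays. All 12 probes of 6 genes high in MDA-MB-231 were detected. They ran from 1.59 to 1671 times the blank percentile on the 2 Gy x 4 array. The brightest probe of VIM, the mesenchymal filament gene, had 26732 units at 2 Gy x 4 and 28208 at 0 Gy. Of the hormone receptor genes, ESR1 was below the blank percentile on both arrays and neither PGR probe was above it on both. Other genes listed as low in this line were detected, with 5 probes for ERBB2, CDH1, EPCAM and GATA3 at 4.43 to 12.7 times the blank percentile of the 2 Gy x 4 array. Detection alone thus did not set the high list apart from the low list. Of 10 probes for leukocyte, endothelial and fibroblast genes 7 were detected, and these 7 spots summed to 1381 units at 2 Gy x 4 and 1641 at 0 Gy. Without DCN, the brightest, the sums were 137 and 208, and PTPRC was below the blank percentile on both arrays. PDGFRB was called lower at 0.606 in column 92 and was not called less the local trend, at 0.699. In the value table it stood at 0.345, and 3 of the 7 probes were called lower. That share was 7.26% over all detected probes and 23.0% in the last 26 columns, which held 3 of the 7. By their labels both cultures were of the MDA-MB-231 line alone, and the source of these signals was not tested. In RNA from a whole culture, fewer cells expressing a gene and less RNA per cell cannot be told apart.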

How the data were processed

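Deposited were 1 scanner file per array, which holds linear median spot intensity before any subtraction or scaling by the authors, and a value table of processed intensity, whose making no source used here describes. Its entries above 10 came within 0.486% of the spot less a trimmed blank level (the mean over the central 90% of blank spots), scaled to a median of 25 on each array.

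Spots marked poor were dropped. Intensities were corrected with limma 3.58.1 (R 4.3.3; normexp, offset 50) and quantile-normalised over the gene probes. Other steps used Python 3.11.15, pandas 2.3.3 and numpy 2.4.6. Symbols came from the platform annotation (21698 probes) or the scanner file (967), updated through the RefSeq gene table of GRCh38.p14, and 1791 probes stayed unnamed. A probe above the 95th percentile of blank spots was detected, and 1.5-fold or more was called. The steps were tested on simulated data. With 1 array per group no test was run, and precision is limited by that number. The members and gene lists were chosen with earlier results of these data known. The text names every member probe, up to 4 genes of each companion list with the largest differences, and ATM, BLOC1S2 and BORCS5. Of these, 1 companion gene is not reported here. Alternatives were other scaling, background correction and filters, a 2-fold rule, the value table, and subtraction of the local trend.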

Additional observations from a re-analysis of the deposited data

How the results depend on the processing

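No paired analysis was possible because each group holds 1 array. Of the 12 member probes 0 was called at 1.5-fold, and 1 was called with offset 0 (KLF11), in the value table (KLF11) and after subtraction of the local background (KLF6). The cause was not tested. Their median log2 difference was -0.02, and -0.18 over the 9 probes of 8 members brighter than the median probe, which leaves out both SP2 probes and SP4. Over all detected probes 71 were called higher and 257 lower. These counts became 195 and 615 with no background correction, 551 and 1180 with offset 0, and 610 and 733 after subtraction of the local background. They were 971 and 1602 in the value table, 44 and 112 less the local trend, 717 and 942 in the value table less that trend, and 4 and 25 by the 2-fold rule. After subtraction of the local background 8 of 33 companion probes turned direction, among them TGFBR2 (0.18), ERRFI1 (0.35), EGR1 (0.35), CCN1 (0.22) and 1 HDAC1 probe (-0.12). That background followed the spot intensity, with Spearman correlations over all spots of 0.929 at 2 Gy x 4 and 0.943 at 0 Gy. Direction turned for 1 of 12 member probes under median and 75th percentile scaling (SP4) and cyclic loess (SP2), for 3 after subtraction of the local background, 2 in the value table, 2 less the local trend, and 3 in the value table less that trend. KLF4, KLF5, KLF9 and KLF11 kept their direction under each of these settings.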
